A study of Tegula funebralis with 16 samples.

Results

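The 5 contigs described here are HSP70 and HSP70-related chaperone contigs of the intertidal snail Tegula funebralis, out of 15903 contigs in an assembled transcriptome. They were chosen by identifier and by their response to heat. SR_contig_18771_C3.1, SR_contig_18769_C3.1 and SR_contig_12347_C3.1 are nearly silent in unheated animals, SR_contig_525 is abundant in them, and SR_contig_2239_C3.1 is named heat shock 70 kDa protein 4-like. Because heated against control values chose them, their heat response is described below with no test, and tests are given only for differences between regions and sites. All 5 had a mean of at least 10 normalised reads and entered every fit.

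HSP70 proteins bind exposed hydrophobic stretches of unfolded proteins and release them in a cycle driven by ATP. Animals carry constitutive forms, which serve folding and transport in unstressed cells, and inducible forms, whose genes heat shock factor switches on when proteins unfold. J-domain proteins of the HSP40 family hand clients to HSP70 and start ATP hydrolysis, whereas exchange factors, among them BAG proteins and the HSPA4 or HSP110 branch of the family, help ADP and the client to leave. In intertidal snails and limpets, which warm in air at low tide, HSP70 is a widely used marker of thermal stress.

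Whole snails from 4 Californian sites were sampled, Slide Ranch and Pigeon Point in the north and Aliso Beach and La Jolla in the south. Control snails stayed in air at 15 °C for 5.5 hours. Heated snails were warmed in air from 15 °C by 3 °C every 30 minutes, were then held at 34 °C for the last 2 hours and 20 minutes, and were out of water for the same 5.5 hours in all. Each site and treatment had 2 libraries, which gave 8 groups and 16 libraries, 8 heated and 8 control. RNA was extracted per individual, but how many animals went into a library is not stated in the labels, so a p-value here reflects how far these libraries spread. A whole animal mixes all tissues, and a change in the number of cells of 1 type cannot be told apart from a change in RNA per cell.

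The libraries held 17594009 to 26103215 reads. Replicate 1 of Pigeon Point and of La Jolla differed from the rest in both treatments: contig SR_contig_83 took 16.6% to 39.2% of their reads, against 1.58% to 6.80% in the other 12. Regional results are therefore given for all 16 libraries and for those 12. Summed markers of muscle (37 contigs) ran from 156794 to 265629 normalised reads in controls and from 195055 to 276004 in heated libraries. Markers of the digestive gland (34 contigs) ran from 559528 to 874336 and from 637203 to 1322030, those of ovary and egg (26 contigs) from 211728 to 463377 and from 279526 to 679184, and those of testis and sperm (30 contigs) from 19935 to 32981 and from 18693 to 30424. Of 26 ovary and egg contigs 3 rose with heat in limma, where 2.08% of all tested contigs did. Between heated and control libraries edgeR called 1 of the 26 and DESeq2 12, and 20 had an unadjusted p under 0.05 in limma. The 26 had a median log2 fold change of 0.51 over 16 libraries and 0.46 over the 12. Over all tested contigs it was 0.00072 and 0.017. Of 99 other tested marker contigs, hemocyanin included, limma and edgeR called 0 and DESeq2 9, 22 had an unadjusted p under 0.05, and 22 were called in the 12 libraries. Over all 14444 tested contigs limma called 613, edgeR 626 and DESeq2 1313, and 2662 had an unadjusted p under 0.05 in limma. The part of the marker contigs in the results below was not tested.

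Contig names are those deposited, and no contig sequence was at hand to check them. SR_contig_18771_C3.1, SR_contig_12347_C3.1 and SR_contig_525 are named heat shock protein 70, while SR_contig_18769_C3.1 is named only heat shock protein, so its place in the family rests on its selection here. SR_contig_525 is the contig closest to a constitutive form by its level in controls, yet it too was higher in every heated library. A contig can be a fragment of a transcript, and reads of near-identical copies could be divided among the HSP70 contigs, which makes the split between them uncertain. Contig lengths are not used here, so levels are not ranked between contigs. Ratios of 2 contigs within a library are ratios of reads and are compared only between libraries.

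SR_contig_18771_C3.1, an HSP70, was nearly absent from controls and abundant in heated libraries at every site. In controls it had 141 and 147 normalised reads at Slide Ranch, 412 and 111 at Pigeon Point, 529 and 232 at Aliso Beach, and 402 and 979 at La Jolla. Heated libraries had 432797 and 460506 at Slide Ranch, 570418 and 360565 at Pigeon Point, 312637 and 307406 at Aliso Beach, and 463997 and 363328 at La Jolla. The lowest heated library thus stood 314 times above the highest control. Means were 369 ± 289.8 and 408957 ± 89713 normalised reads (SD, n = 8 each), medians were 317 and 398063, and the log2 fold change, averaged over the sites on the log2(value + 1) scale, was 10.44 ± 0.29 (SE). Controls varied far more than heated libraries, with an 8.86-fold range from lowest to highest against a 1.86-fold one. The ratio of heated to control means was 3103 at Slide Ranch and 1780.1 at Pigeon Point in the north, and 814 at Aliso Beach and 599 at La Jolla in the south. The order of these ratios followed the control means in reverse.

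SR_contig_18769_C3.1, named heat shock protein, had the largest log2 fold change of all tested contigs, 11.06 ± 0.49 (SE). Control libraries had 31.3 and 36.9 normalised reads at Slide Ranch, 519.9 and 30.7 at Pigeon Point, 37.1 and 42.9 at Aliso Beach, and 109 and 449 at La Jolla. After heating it stood at 240892 and 249849 at Slide Ranch, 215154 and 143937 at Pigeon Point, 140226 and 130043 at Aliso Beach, and 142249 and 146448 at La Jolla. In 5 of 8 controls the level lay between 30.7 and 42.9, and Pigeon Point control 1, both La Jolla controls and no other control lay above that. The low counts behind it were 36 reads in Slide Ranch control 1, a share of 1.97e-04% with a Wilson 95% interval from 1.43e-04% to 2.73e-04%, and 528 reads in La Jolla control 2, or 0.00289% (0.00265% to 0.00314%). Means were 157 ± 204.5 in controls and 176100 ± 50185 in heated libraries (SD, n = 8 each), medians 40.02 and 145192, and the lowest heated library was 250.1 times the highest control. The control mean is thus set by 2 libraries, and by site the log2 fold change was 12.77 at Slide Ranch and 10.42 at Pigeon Point, then 11.69 at Aliso Beach and 9.34 at La Jolla.

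The third induced contig, SR_contig_12347_C3.1, is again named HSP70. Its control values were 148 and 106 normalised reads at Slide Ranch, 632 and 88.0 at Pigeon Point, 51.9 and 59.8 at Aliso Beach, and 255 and 465.9 at La Jolla. Heated values were 168071 and 149231, 197244 and 117654, 84421 and 77939, and 209717 and 103877 in the same order of sites. Aliso Beach was lowest in both treatments, and no heated library came nearer to the controls than 123 times the highest of them. Means were 226 ± 214 and 138519 ± 50339 (SD, n = 8 each), medians 127 and 133443, with a log2 fold change of 9.71 ± 0.35 (SE). At single sites it was highest at Aliso Beach (10.48) and Slide Ranch (10.30) and lower at Pigeon Point (9.33) and La Jolla (8.74).

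SR_contig_525, an HSP70 abundant without heating, had 33487 to 64082 normalised reads in controls, with a median of 42757. Heated libraries ran from 150101 to 260576 with a median of 170981. The groups did not overlap, and the highest library of each treatment was the first of Pigeon Point, 1 of the 4 that stand apart. Mean levels were 44343 ± 9467 and 187416 ± 39504 (SD, n = 8 each), a 4.23-fold difference of means and a log2 fold change of 2.08 ± 0.17 (SE). Its control share of reads was even across sites, from 0.195% to 0.273%. By site the heated mean was 4.83 times the control mean at Slide Ranch, 4.21 times at Pigeon Point, 4.48 times at La Jolla and 3.48 times at Aliso Beach. In normalised reads the mean of SR_contig_525 rose by 143073, against 408588 for SR_contig_18771_C3.1, 175943 for SR_contig_18769_C3.1 and 138294 for SR_contig_12347_C3.1. These gains are in reads, not per length, and the small fold change of SR_contig_525 goes with its high starting level.

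SR_contig_2239_C3.1 carries the name of an HSPA4-type protein, a relative of HSP70 that in mammals and yeast acts as an exchange factor for it. Controls had 1003 to 1577 normalised reads with a median of 1274, and heated libraries 6609.7 to 14926.5 with a median of 9831. No library of either treatment reached the range of the other. Means were 1290.5 ± 168 and 9954 ± 2455 (SD, n = 8 each), a 7.71-fold difference of means and a log2 fold change of 2.92 ± 0.13 (SE). In normalised reads its 8 control levels were the least variable of the 5 contigs. Their coefficient of variation was 13.02%, against 21.3% for SR_contig_525 and 78.5% to 130.2% for the induced 3. Among the controls of the 12 libraries it was 10.66%, close to the 11.14% of SR_contig_525. As a share of control reads SR_contig_2239_C3.1 varied more for its size, from 0.0039% to 0.0095%, against 0.195% to 0.273% for SR_contig_525. Slide Ranch heat 1 was the highest heated library and La Jolla heat 1 the lowest.

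For each of the 5 contigs, all 8 heated libraries were above all 8 controls, which held for 169 of 14444 tested contigs (1.17%). Since that contrast chose the members, the count says nothing further about them. In the same fit limma called 613 of the tested contigs (4.24%), 301 higher (2.08%) and 312 lower (2.16%). By the size of the log2 fold change, SR_contig_18769_C3.1 ranked 1, SR_contig_18771_C3.1 ranked 3, SR_contig_12347_C3.1 ranked 4, SR_contig_2239_C3.1 ranked 83 and SR_contig_525 ranked 157. When values were scaled to the reads outside SR_contig_83, the median of all contigs shifted by -0.39 (log2), and the fold changes became 10.05 for SR_contig_18771_C3.1, 1.69 for SR_contig_525 and 2.53 for SR_contig_2239_C3.1.

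**Figure D1:**
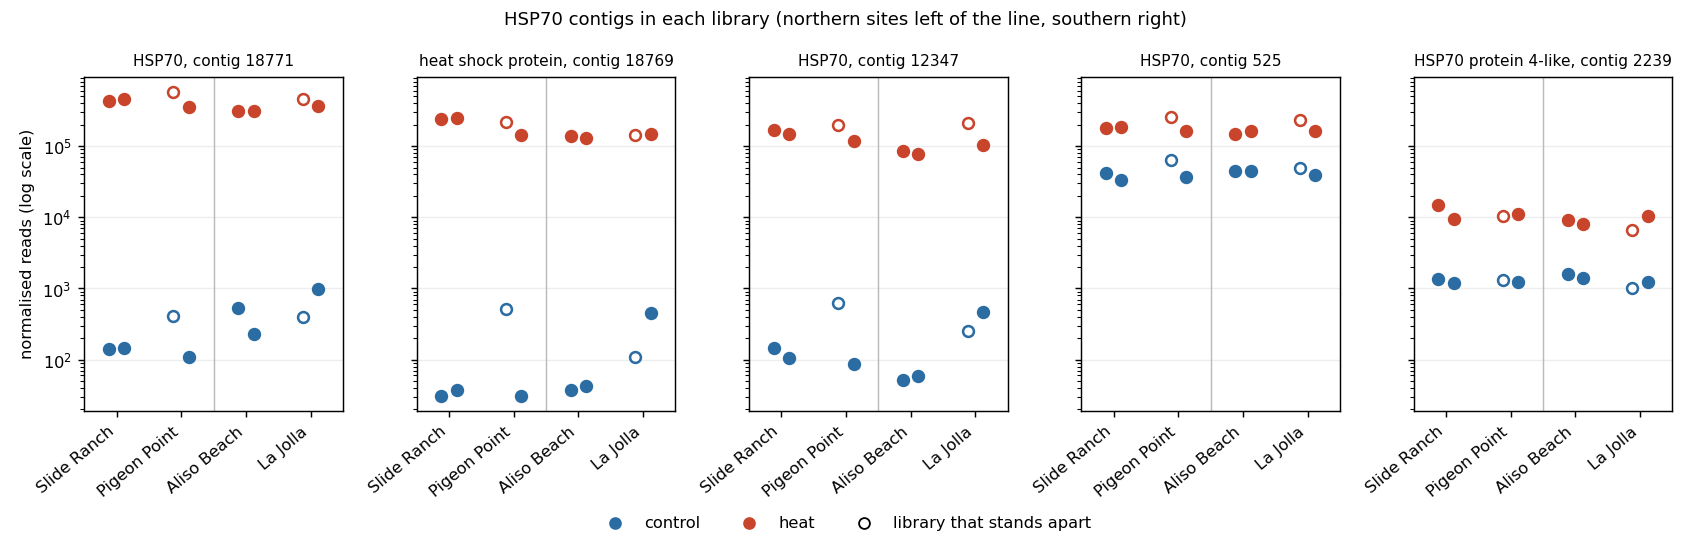
Normalised reads (log scale) of the 5 contigs in each of the 16 libraries, by site, with controls in blue, heated libraries in red and open circles for the 4 libraries that stand apart. The induced 3 contigs spread more among controls than among heated libraries: 8.86-fold against 1.86-fold for SR_contig_18771_C3.1, 16.9-fold against 1.92-fold for SR_contig_18769_C3.1 and 12.2-fold against 2.69-fold for SR_contig_12347_C3.1.

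Together the 3 induced contigs and SR_contig_525 took 0.198% to 0.276% of a control library's reads, with a median of 0.261%, and 2.13% to 5.35% of a heated one, with a median of 3.68%. Slide Ranch heat 2 had the largest share and La Jolla heat 1 the smallest, and SR_contig_83 took 39.2% of the reads of the latter. Counted over the reads outside SR_contig_83, the heated shares ran from 3.43% to 5.57%. The induced 3 alone went from 0.00159% to 0.0122% in controls to 1.65% to 4.403% after heating. Adding SR_contig_2239_C3.1 moved the heated range only to 2.14% to 5.40%.

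**Figure D2:**
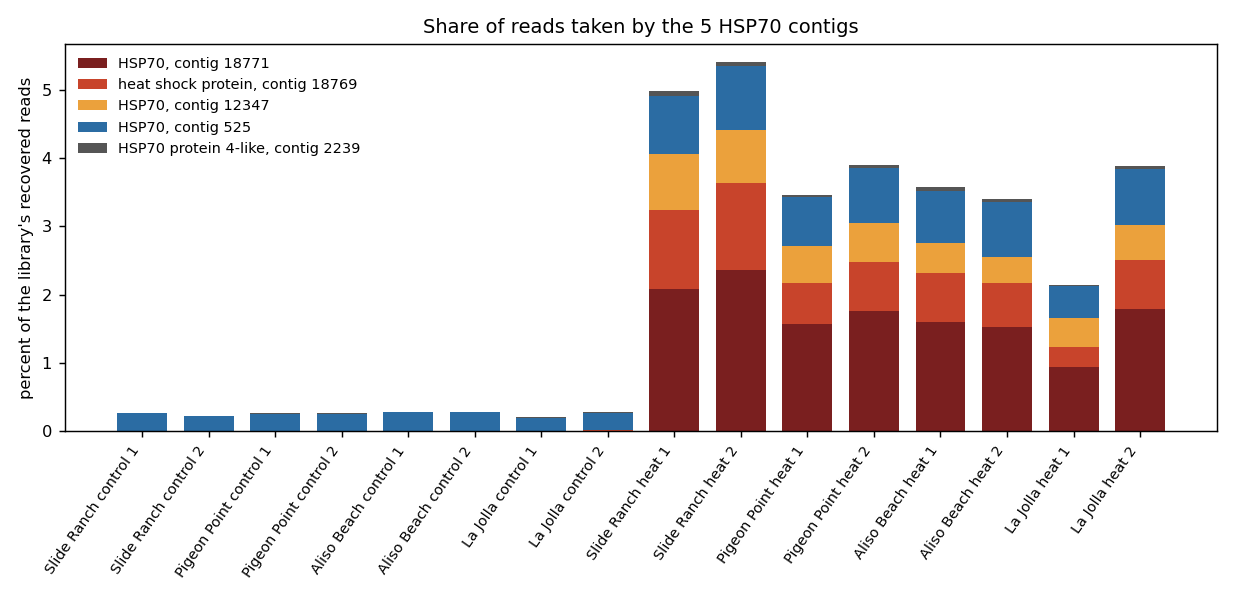
Percent of each library's reads on each of the 5 contigs, stacked, with the 8 controls at the left and the 8 heated libraries at the right. Controls consist almost wholly of SR_contig_525 and reach at most 0.286%, while heated libraries reach 2.14% to 5.40%, mostly from the induced 3.

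Heating changed which contig held the reads of these 4. In controls SR_contig_525 held 95.4% to 99.4% of them, and after heating 17.4% to 23.9%. SR_contig_18771_C3.1 went from 0.298% to 2.37% in controls to 42.5% to 46.7%, SR_contig_18769_C3.1 from 0.0750% to 1.09% to 13.5% to 23.9%, and SR_contig_12347_C3.1 from 0.113% to 1.13% to 11.5% to 19.9%. Among heated libraries the share of SR_contig_18771_C3.1 varied least relative to its size, and those of SR_contig_18769_C3.1 and SR_contig_12347_C3.1 varied more.

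Ratios within a library do not depend on its scaling, so they were set side by side across libraries. The ratio of SR_contig_18771_C3.1 to SR_contig_525 ran from 1.90 to 2.49 in heated libraries, a 1.31-fold range, and from 0.00300 to 0.0248 in controls, an 8.28-fold range. It was 2.19 to 2.49 in the northern heated libraries and 1.90 to 2.21 in the southern ones, which overlap. Relative to SR_contig_18769_C3.1, SR_contig_18771_C3.1 had 1.80 to 3.26 times the reads after heating and 0.793 to 14.3 times in controls, with Pigeon Point control 1 at the low end and Aliso Beach control 1 at the high end. Its ratio to SR_contig_12347_C3.1 ran from 2.21 to 3.94 after heating and from 0.653 to 10.2 in controls, at the low and high ends again in these 2 controls. SR_contig_18769_C3.1 had 0.678 to 1.67 times the reads of SR_contig_12347_C3.1 after heating, a 2.47-fold range, and 0.212 to 0.964 times in controls, a 4.55-fold range. These ratios thus ranged less among heated libraries than among controls. SR_contig_525 had 28.3 to 49.8 times the reads of SR_contig_2239_C3.1 in controls and 11.9 to 35.7 times after heating, the upper end in La Jolla heat 1.

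**Figure D3:**
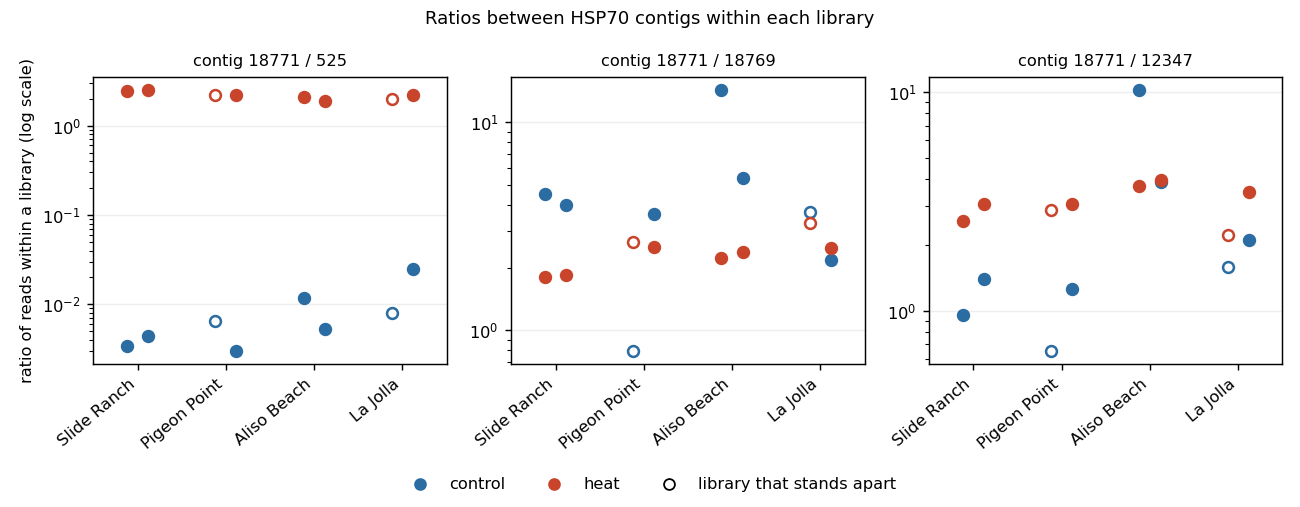
Ratio of the reads of SR_contig_18771_C3.1 to those of SR_contig_525, SR_contig_18769_C3.1 and SR_contig_12347_C3.1 (log scale, from left to right). Each library is shown by site, with controls in blue, heated libraries in red and open circles for the 4 libraries that stand apart. In the left panel heated libraries run from 1.90 to 2.49, while controls are scattered over a wider range in all 3 panels.

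The level of the induced contigs in unheated animals was followed across the 8 controls, relative to the median of those 8. In Pigeon Point control 1, SR_contig_18769_C3.1 was at 12.99 times the median, SR_contig_12347_C3.1 at 4.98 times and SR_contig_18771_C3.1 at 1.30 times. La Jolla control 2 had 11.2, 3.68 and 3.09 times, and La Jolla control 1 had 2.72, 2.01 and 1.27 times. As a share of reads La Jolla control 1 stood less apart. SR_contig_12347_C3.1 took 9.95e-04% there, against 9.32e-04% in Slide Ranch control 1 and 0.00247% in Pigeon Point control 1. SR_contig_18769_C3.1 took 4.25e-04% there, against 2.65e-04% in Aliso Beach control 2. Small heat shock protein 26 (SR_contig_5896_C3.1) is a chaperone that holds unfolding proteins without ATP. In normalised reads it had 5.06 times its median in Pigeon Point control 1, 3.80 in La Jolla control 2 and 2.64 in La Jolla control 1. Of 7442 named candidates it varied most like SR_contig_12347_C3.1 over the 16 libraries (r = 0.99 in controls), so it is no independent check. Other heat-raised chaperones were mixed. Of the 22 chaperone contigs outside the 5 that rose in limma, all from lists given further on, 5 lay over 2 times their control median in Pigeon Point control 1, 2 in La Jolla control 1 and 2 in La Jolla control 2, small heat shock protein 26 being in each count. The small heat shock proteins SR_contig_10392_C3.1 and SR_contig_1049_C3.1 had 3.74 and 2.45 times in Pigeon Point control 1 and 2.21 and 1.93 times in La Jolla control 1, but 0.840 and 0.983 times in La Jolla control 2. GRP78 (SR_contig_7836), an HSP70 of the endoplasmic reticulum, had 3.62, 1.68 and 1.04 times in these 3. The BiP-like contig SR_contig_18099_C3.1, highest in Pigeon Point control 1 and La Jolla control 2 but with at most 5.81 normalised reads, is too sparse in controls to compare. Of 4 contigs that stayed nearer their medians, chosen after their values were seen, the HSP70 contig SR_contig_5144 was at 1.32 times the median in Pigeon Point control 1 and 1.03 times in La Jolla control 2, DNAJB1 (SR_contig_17338) at 1.41 and 1.16 times, the BAG3-like contig (SR_contig_31772) at 1.30 and 1.17 times, and HSP90 (SR_contig_806_C3.1) at 1.31 and 0.931 times. Over all 8 controls these 4 contigs and SR_contig_525 stayed between 0.729 and 1.499 times their medians. Pigeon Point control 1 is 1 of the 4 libraries with a high share of SR_contig_83 (16.6%), and La Jolla control 2, at 2.34%, is not. Without Pigeon Point control 1 and the controls of La Jolla, SR_contig_18769_C3.1 ran from 30.7 to 42.9 normalised reads and SR_contig_12347_C3.1 from 51.9 to 148, whereas SR_contig_18771_C3.1 still ran from 111 to 529, with Aliso Beach control 1 at the top.

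**Figure D4:**
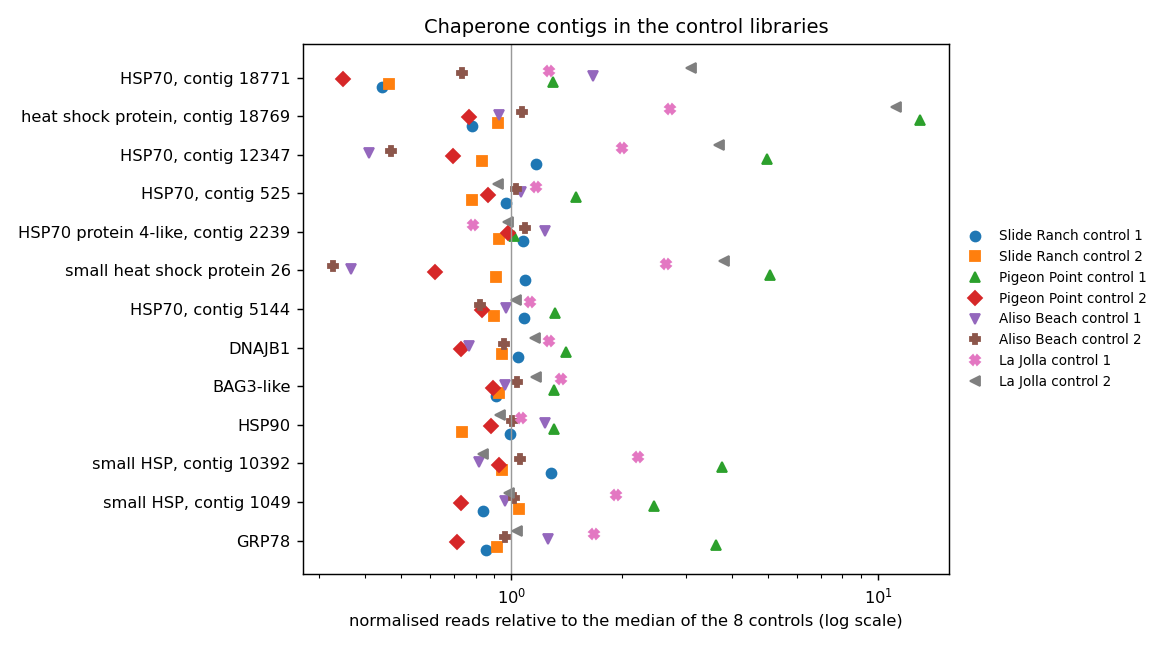
Normalised reads of the 5 members and of 8 other chaperone contigs in each control library, divided by the median of the 8 controls (log scale), 1 symbol per library. Pigeon Point control 1 and La Jolla control 2 lie far right for SR_contig_18769_C3.1 (12.99 and 11.2), SR_contig_12347_C3.1 and small heat shock protein 26, and between 0.931 and 1.41 for SR_contig_5144, DNAJB1, BAG3-like and HSP90. In GRP78 and the small heat shock proteins SR_contig_10392_C3.1 and SR_contig_1049_C3.1 only the first of these libraries lies far right (3.62, 3.74 and 2.45).

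Sites were then ordered by the level of each contig. In normalised reads Aliso Beach was the lowest heated group for the induced 3 and for SR_contig_525. Its 2 libraries lay below every other heated library for each of them. As a share of reads this did not hold. La Jolla heat 1 was then lowest for SR_contig_18771_C3.1 (0.940%), SR_contig_18769_C3.1 (0.288%) and SR_contig_525 (0.478%). The Aliso Beach libraries had 1.60% and 1.52%, 0.719% and 0.644%, and 0.769% and 0.800%. For SR_contig_12347_C3.1 La Jolla heat 1, at 0.425%, lay between the Aliso Beach libraries, at 0.433% and 0.386%. For SR_contig_18771_C3.1 the mean in normalised reads was 310021 ± 3699 at Aliso Beach, 413662 ± 71184 at La Jolla, 446652 ± 19593 at Slide Ranch and 465491 ± 148389 at Pigeon Point (SD, n = 2 each). The last 3 overlapped with their neighbours in that order. SR_contig_18769_C3.1 was highest at Slide Ranch, at 245371 ± 6333, whose libraries lay above those of Pigeon Point, at 179545 ± 50358, while Pigeon Point overlapped with La Jolla, at 144348 ± 2969. The exchange-factor contig SR_contig_2239_C3.1 ran from 12156.5 ± 3917 at Slide Ranch through 10619.4 ± 486 at Pigeon Point to 8542 ± 817 at Aliso Beach and 8499.5 ± 2673 at La Jolla, with the first pair and the last pair overlapping. Among controls nearly all neighbours overlapped. The exceptions were Aliso Beach above Slide Ranch for SR_contig_18769_C3.1, Slide Ranch above Aliso Beach for SR_contig_12347_C3.1 and Aliso Beach above Slide Ranch for SR_contig_2239_C3.1.

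The study set northern against southern snails, and over all 16 libraries limma called 0 of the 5 contigs in any regional or site comparison. At an unadjusted p under 0.05 there was 1 contig in controls and 1 in the heat effect between regions, and 2 in controls between sites. On the recovered reads edgeR called 0, and DESeq2 called 1 between regions and 2 between sites, all in controls. There DESeq2 called 340 of 14444 contigs between regions and 394 between sites. Between heated southern and northern animals, where 168 of 14444 contigs were called (1.16%), the log2 differences (south minus north) were -0.33 (95% interval -1.25 to 0.58) for SR_contig_18771_C3.1, -0.57 (-2.09 to 0.94) for SR_contig_18769_C3.1 and -0.51 (-1.60 to 0.59) for SR_contig_12347_C3.1. SR_contig_525 had -0.14 (-0.67 to 0.38) and SR_contig_2239_C3.1 -0.42 (-0.83 to 0.00). All 5 were lower in the south, with limma adjusted p between 0.355 and 0.881 and an interval that reaches 0 in each, and SR_contig_525 turned to 0.022 without Pigeon Point heat 1. SR_contig_2239_C3.1 had the smallest unadjusted p, 0.0514, with 8521 ± 1614 normalised reads in the south and 11388 ± 2446 in the north (SD, n = 4 each).

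In controls, where limma called 38 contigs (0.263%), 0 of the 5 passed. SR_contig_18771_C3.1 came nearest, with 536 ± 319.8 normalised reads in the south and 203 ± 141 in the north (SD, n = 4 each). Its lowest southern control, 232, lay above 3 of the 4 northern ones, and Pigeon Point control 1, at 412, lay among the southern libraries. The log2 difference was 1.41 ± 0.42 (SE, 95% interval 0.50 to 2.33) with an unadjusted p of 0.00567 and an adjusted p of 0.254 in limma, and over 29 alternative settings the adjusted p ran from 0.00354 to 0.839, under 0.05 in 4 of them. For the others the differences were 0.51 (-1.004 to 2.02) for SR_contig_18769_C3.1, -0.30 (-1.40 to 0.79) for SR_contig_12347_C3.1, 0.07 (-0.46 to 0.59) for SR_contig_525 and 0.02 (-0.40 to 0.43) for SR_contig_2239_C3.1, all with an adjusted p of at least 0.982. The intervals of the last pair, whose basal levels are even, reach no further than 0.59 on either side.

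**Figure D5:**
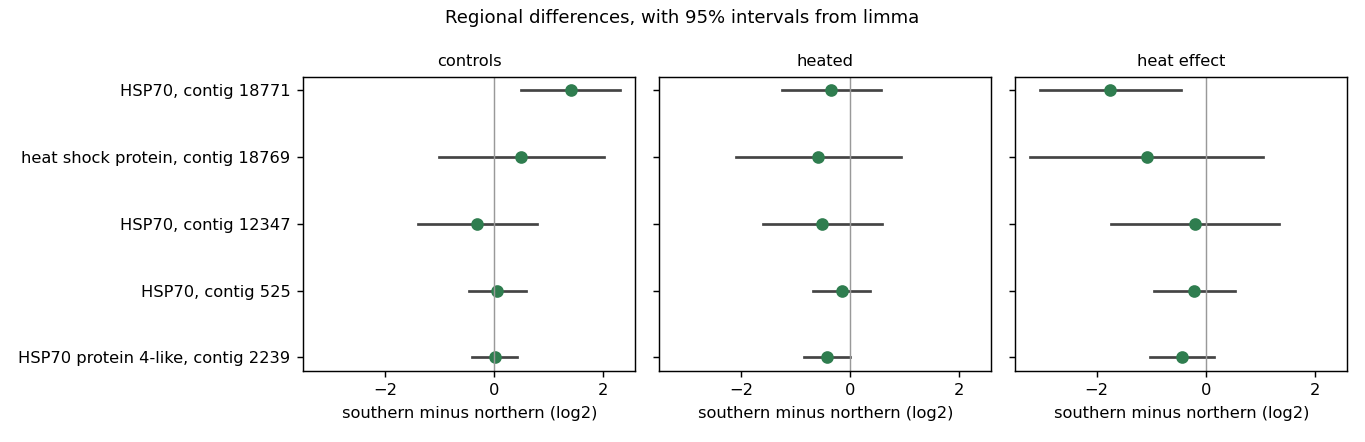
Southern minus northern difference (log2) of the 5 contigs in controls, in heated libraries and in the heat effect, with 95% intervals from limma over 16 libraries. The intervals of SR_contig_18771_C3.1 leave out 0 in controls (0.50 to 2.33) and in the heat effect (-3.04 to -0.46), before adjustment over the 14444 contigs.

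For the heat effect itself, limma called 0 of 14444 contigs (0%) between regions, with 197 at an unadjusted p under 0.05, and edgeR and DESeq2 called 0 each. SR_contig_18771_C3.1 had a log2 fold change of 9.57 in the south and 11.32 in the north, a difference of -1.75 ± 0.59 (SE, 95% interval -3.04 to -0.46), with an unadjusted p of 0.0122 and an adjusted p of 0.99994. The difference equals the heated difference of -0.33 less the control difference of 1.41, so most of it lies in the controls. SR_contig_18769_C3.1 had -1.08 (-3.22 to 1.06), SR_contig_12347_C3.1 -0.20 (-1.75 to 1.34), SR_contig_525 -0.21 (-0.95 to 0.53) and SR_contig_2239_C3.1 -0.43 (-1.02 to 0.16). The 2 contigs with lasting basal levels had the narrowest intervals.

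Tests of any difference among the 4 sites also called 0 of the 5 over 16 libraries, against 106 of 14444 contigs (0.734%) in heated animals, 57 (0.395%) in controls and 0 (0%) in the heat effect, where 113 had an unadjusted p under 0.05, edgeR called 0 and DESeq2 2. In controls SR_contig_12347_C3.1 had site means that spanned 2.61 (log2), with an unadjusted p of 0.0165 and an adjusted p of 0.496 in limma. SR_contig_18771_C3.1 spanned 2.12 (adjusted p = 0.543) and SR_contig_18769_C3.1 spanned 2.67 (adjusted p = 0.745). The adjusted p of the first ran from 3.92e-04 to 1.0 over 27 alternative settings.

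In the 12 libraries without those that stand apart, calls appeared among the induced 3, and 14296 contigs were tested. Pigeon Point and La Jolla then have 1 library per treatment, so the spread comes from the pairs of Slide Ranch and Aliso Beach. Among controls, 3 of 5 passed in limma against 4.26% of tested contigs: SR_contig_18769_C3.1 with a southern-minus-northern difference of 2.03 ± 0.11 (SE, adjusted p = 3.63e-05), SR_contig_18771_C3.1 with 2.21 ± 0.25 (adjusted p = 0.00354) and SR_contig_12347_C3.1 with 0.62 ± 0.14 (adjusted p = 0.0464). The first pair kept their calls in each of 8 fits that left out a library of Slide Ranch or Aliso Beach, and SR_contig_12347_C3.1 in 1 of the 8, without Slide Ranch control 1. Only the fits that left out a control could move these differences, to 1.97 to 2.08 for SR_contig_18769_C3.1 and 1.91 to 2.50 for SR_contig_18771_C3.1. La Jolla control 2 and Pigeon Point control 2 were never left out in these fits. A large share of these differences came from La Jolla control 2, the only La Jolla control among the 12. Without it too, when Aliso Beach alone stands for the south, SR_contig_18769_C3.1 had 0.30 (adjusted p = 0.170), SR_contig_18771_C3.1 had 1.47 (adjusted p = 0.0182) and SR_contig_12347_C3.1 turned to -0.90 (adjusted p = 0.0138), with 1090 contigs called in all. Of the ovary and egg markers, 15 of 26 were also called between regions in controls of the 12 libraries, and their part here was not tested. For SR_contig_12347_C3.1 the 2 southern sites lay on opposite sides of the northern ones among the 12 libraries. It had 51.9 and 59.8 normalised reads in Aliso Beach controls and 465.9 in La Jolla control 2, against 148, 106 and 88.0 in northern controls. Over all controls this did not hold, because Pigeon Point control 1, outside the 12, had 632 and both La Jolla controls lay below it.

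Heated animals in the 12 libraries gave 2 calls of 5 against 9.72% of tested contigs. SR_contig_12347_C3.1 was lower in the south by -0.57 ± 0.14 (SE, adjusted p = 0.0382) and SR_contig_18769_C3.1 by -0.42 ± 0.11 (adjusted p = 0.0479). Each kept its call in 2 of 8 fits that left out 1 more library, those without Slide Ranch control 1 or Slide Ranch control 2, and over the 28 alternative settings the adjusted p ran from 0.0382 to 0.924 and from 0.0479 to 0.947. For SR_contig_18769_C3.1 the single northern library outside Slide Ranch, at 143937, lay within the southern range of 130043 to 146448, so only Slide Ranch stood higher. The heat effect of SR_contig_18769_C3.1 differed by -2.44 ± 0.16 (SE, adjusted p = 7.77e-04) in the 12 libraries, where 0.014% of contigs were called, and by -0.77 (adjusted p = 0.585) without La Jolla control 2. Site tests in the 12 called SR_contig_12347_C3.1 and SR_contig_18769_C3.1 in heated libraries (9.32% of contigs called), the induced 3 in controls (4.04%) and SR_contig_18769_C3.1 in the heat effect (0.021%). In the 8 fits that left out 1 more library, leaving out a control could not move a heated value, for regions or sites. Without 1 heated library, SR_contig_12347_C3.1 lost its heated site call each time, with spans of 0.88 to 1.05 (log2). SR_contig_18769_C3.1 kept its call only without Aliso Beach heat 1, with spans of 0.81 to 0.92 over these fits. The site calls of the induced 3 in controls, and that of SR_contig_18769_C3.1 in the heat effect, held in all 8. Leaving out a heated library could not move the control values, and the single libraries of Pigeon Point and La Jolla were never left out. SR_contig_525 and SR_contig_2239_C3.1 were called in none of these comparisons, over 16 or 12 libraries or under any alternative setting run.

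How the members varied together was described by the correlation of their log2 levels after the mean of each treatment was taken out. The points share libraries, scaling and depth. SR_contig_18769_C3.1 and SR_contig_12347_C3.1 had r = 0.87 over 16 libraries, 0.91 over the 8 controls and 0.59 over the 8 heated libraries. SR_contig_18771_C3.1 had 0.73 with the first over 16 libraries and 0.53 with the second. In heated libraries alone it had 0.94 with SR_contig_12347_C3.1 and 0.90 with SR_contig_525. Over the 12, with both treatments, these pairs had 0.47 and 0.45. The pair of SR_contig_12347_C3.1 and SR_contig_525 had 0.56 over 16 libraries and -0.07 over the 12. SR_contig_2239_C3.1 had -0.18 to 0.05 with the other 4 over 16 libraries, but 0.54 with SR_contig_525 over the 12, 0.56 with SR_contig_18769_C3.1 in heated libraries and -0.46 with SR_contig_12347_C3.1 in controls.

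The named contigs whose levels varied most like each member were taken from 7442 candidates by the same measure over 16 libraries. For SR_contig_12347_C3.1 they were small heat shock protein 26 (SR_contig_5896_C3.1, r = 0.91), DNAJB1 (SR_contig_17338, 0.87) and protein star (SR_contig_30173, 0.86), with 0.91, 0.77 and 0.82 over the 12. SR_contig_18769_C3.1 had the same leading pair, at 0.79 and 0.75, followed by lustrin (SR_contig_20439, 0.74). SR_contig_18771_C3.1 had other neighbours: an inosine-uridine preferring nucleoside hydrolase-like contig (SR_contig_162560, 0.82), a sodium glucose cotransporter 4-like contig (SR_contig_7623, 0.77) and a C-binding protein (SR_contig_19812, 0.74). The likeness to SR_contig_162560 lay in the controls, with r = 0.93 there and -0.12 in heated libraries. SR_contig_525 was closest to a C21orf59 homolog (SR_contig_20524, 0.95), to the mitochondrial HSP70 named stress-70 (SR_contig_6894, 0.95) and to an RPABC4-like polymerase subunit (SR_contig_7913_C3.1, 0.93), which fell to 0.90, 0.77 and 0.69 over the 12. SR_contig_2239_C3.1 was closest to sushi domain-containing protein 2 (SR_contig_816_C3.1, 0.90), dynactin subunit 1-like (SR_contig_10288, 0.88) and complement C3 (SR_contig_38160, 0.86).

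The rest of the HSP70 family holds 5 further contigs, of which 4 rose under heat in limma and all 5 did in the 12 libraries, where 10.8% of tested contigs rose. The median log2 fold change of the 5 was 2.12 over 16 libraries, against 0.00072 over all tested contigs. SR_contig_5144, also named heat shock protein 70, went from 719.8 to 1152 normalised reads in controls to 53929.8 to 84336 in heated libraries, a log2 fold change of 6.27 ± 0.12 (SE) with an adjusted p of 2.15e-11 in limma. Every heated library lay above every control. The BiP-like contig SR_contig_18099_C3.1, whose name is that of the endoplasmic reticulum HSP70, had at most 5.81 normalised reads in controls, 0 in 3 of them, and 182 to 1118 after heating, so its fold change depends on the pseudocount. GRP78 (SR_contig_7836), of the same compartment, had a log2 fold change of 2.12 ± 0.33 (SE, adjusted p = 0.00296), and stress-70 (SR_contig_6894) had 1.15 ± 0.22 (adjusted p = 0.0116). HSP70 protein 14 (SR_contig_851), which in mammals works at the ribosome, had 0.56 ± 0.19 (adjusted p = 0.150 over 16 libraries and 0.00769 over the 12).

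Partners that feed or empty HSP70 were led by a few strong responders. Of 13 HSP40 J-domain contigs, 4 rose and 0 fell in limma, where 2.08% of tested contigs rose, and 6 rose in the 12 libraries, where 10.8% did. Their median log2 fold change was 0.25. DNAJB1 (SR_contig_17338), the J-domain partner of inducible HSP70 in mammals, went from 1023 to 1985 normalised reads in controls to 200222 to 288492 after heating, a log2 fold change of 7.44 ± 0.14 (SE). DNAJA1 (SR_contig_42313) had 4.15 and a DNAJC16-like contig (SR_contig_136917) 1.30. Of 8 exchange and binding factors 2 rose: the BAG3-like contig (SR_contig_31772), an exchange factor that in mammals links HSP70 to autophagy, with 7.24 ± 0.10, and a cytoplasmic HSPA-binding cochaperone (SR_contig_16467_C3.1), an exchange factor in mammals, with 6.46 ± 0.14. A SIL1 contig (SR_contig_246682), the exchange factor of the endoplasmic reticulum, had 0.78 (adjusted p = 0.193). SR_contig_2239_C3.1, at 2.92, stood between these groups in its log2 fold change.

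Other chaperone systems were set beside the HSP70 contigs. All 5 contigs of HSP90 and its co-chaperones rose (again against 2.08% of tested contigs), with a median of 3.67, among them HSP90 (SR_contig_806_C3.1, 3.67), the myosin chaperone unc-45 (SR_contig_28713, 2.50) and stress-induced phosphoprotein 1 (SR_contig_22372, 1.38), which joins HSP70 to HSP90. All 3 small heat shock proteins rose, with a median of 5.46. Of 10 contigs of the cytosolic chaperonin and prefoldin, 4 rose (8 in the 12, against 10.8%), with a median of 0.81, among them CCT zeta (SR_contig_316, 0.87), theta (SR_contig_912_C3.2, 0.81) and epsilon (SR_contig_7767, 0.87). The 1 contig matched to heat shock factors, heat shock factor-binding protein 1-like (SR_contig_5522), had 0.23 (adjusted p = 0.348). Across these 7 lists 0 contigs fell, while 312 of 14444 tested contigs did (2.16%). In heated animals 1 contig of the 7 lists, an HSP40, was called between regions by limma, while DESeq2 called 3 contigs and limma 4 in the 12 libraries. Of the 45 contigs of the 7 lists, limma and edgeR called 0 between regions in controls (6 at an unadjusted p under 0.05, 3 called by DESeq2 and 5 in the 12 libraries) and 0 in the heat effect (4, 0 and 1).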

How the data were processed

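Per the labels' protocols, whole animals were frozen and ground and RNA was extracted from each individual. The authors deposited 1 table of normalised signal values, with CASAVA and DESeq listed, unversioned, in the submitters' processing notes. The sources used here do not give the steps of assembly, mapping and filtering. Tested on the table, the deposited values were read counts divided by a size factor: 100.0% of values came out whole within 0.01 read after multiplication by it, and size factors recomputed from those reads by the median of ratios equalled the authors' own. Normalised reads are these deposited values.

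From them, limma 3.58.1 (R 4.3.3) fitted log2(value + 1) with a trend of the variance and 1 mean per site and treatment. The fit left out contigs whose mean was under 10, and p-values were adjusted by Benjamini-Hochberg over 14444 contigs in each of 7 comparisons, at a threshold of 0.05. Intervals of differences are limma 95% intervals, and Wilson 95% intervals of shares cover counting error only. The pseudocount understates changes of low contigs.

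The members and all lists were chosen with earlier results of these data known, and list patterns were corrected by contig name after matching. Named contigs were the members, the rest of the HSP70 family, up to 3 contigs per other chaperone list with the smallest p under heat, and for each member the 3 informatively named contigs with a mean of at least 50 and the highest correlation. A contig named heat shock protein with no further word (SR_contig_31099) fell in no list. It had 964 to 1488 normalised reads in controls and 2161 to 4570.3 after heating. The 2 hemocyanin contigs, markers of blood, summed to 18596 to 50383 and 13636 to 59932.

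Alternatives were pseudocounts of 0.5 and 5, no filter, a mean of at least 50, TMM scaling, edgeR 4.0.16 and DESeq2 1.42.0 on the recovered reads, site as a random effect, a replicate block, the 12 libraries, and each library left out. Chosen after seeing the data were scaling to reads outside SR_contig_83, a term for the 4 libraries apart, and the 12 libraries without La Jolla. That last fit left out La Jolla control 2 and La Jolla heat 2, so Aliso Beach alone stood for the south. Each library of Slide Ranch and Aliso Beach was also left out of the 12 in turn, in 8 fits. A group left with 1 library takes the spread of the other groups. The steps were tested on simulated reads drawn independently for each library, which leaves out any correlation between libraries. Figures were drawn with matplotlib 3.10.9.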

Additional observations from a re-analysis of the deposited data

Results flagged for a closer look

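Among 30 sets of libraries examined (each of the 5 contigs in each treatment, with all 8 libraries and with the 4 of each region), 1 had a library far from the rest. In northern controls, SR_contig_18769_C3.1 stood at 519.9 normalised reads in Pigeon Point control 1, against 30.7 to 36.9 in the other 3. On the log2 scale the gap to its nearest neighbour was 0.936 of the range of the 4, above the 95% critical value of 0.829 (Dixon). Chance flags about 1 in 20 such sets. The same library had 16.6% of its reads on SR_contig_83, and small heat shock protein 26 at 5.06 times the control median, whose part was not tested.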

How the results depend on the processing

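For the 5 contigs, 930 of 970 values under alternative settings counted as unchanged, and every heat difference kept its sign. Unchanged meant a shift smaller than the residual SD for heat, which has no threshold here. For regions it meant the same sign and side of the threshold, and for sites, where there is no sign, the same side. Differences of the induced contigs in the 12 libraries, and in those without La Jolla, stand above. DESeq2 also called SR_contig_18771_C3.1 between regions in controls (adjusted p = 0.0401) and SR_contig_12347_C3.1 and SR_contig_18769_C3.1 between sites there (0.0179 and 0.0108), a term for the 4 libraries called the first (0.0417), and the fit without Pigeon Point control 2 called the other two between sites (0.0202 and 0.0271). The causes were not tested.

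Signs turned for small differences. For the heat effect of SR_contig_12347_C3.1 edgeR gave 0.094, DESeq2 0.11 and the fit without La Jolla 0.15, and leaving out 1 library gave -0.91 to 0.51. In controls it had 0.62 in the 12 libraries and -1.01 to 0.40 with 1 library left out. There SR_contig_18769_C3.1 ran from -0.50 to 1.52, SR_contig_2239_C3.1 from -0.063 to 0.096 and SR_contig_525 from -0.13 to 0.27. Scaled to reads outside SR_contig_83, the last 2 had -0.067 and -0.018. In heated libraries SR_contig_525 ran from -0.31 to 0.022.

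Counts of called contigs moved more. In the order heat, regions heated, regions in controls, sites heated and sites in controls they were 613, 168, 38, 106 and 57. DESeq2 gave 1313, 792, 340, 798 and 394, and 2 between sites for the heat effect. The 12 libraries gave 2736, 1389, 609, 1333 and 577, with 2 and 3 for the heat effect between regions and sites. A term for the 4 libraries gave 3531, 2019, 785, 1195 and 484. Scaling to reads outside SR_contig_83 gave 1419 (165 higher, 1254 lower) for heat, 29 for regions heated and 61 for sites heated. A mean of at least 50 gave 37 for sites in controls, site as a random effect 22 and 5 for the regions, and the 11 libraries 1090 for regions in controls. With 1 library left out the counts ran from 404 to 1099, 23 to 351, 10 to 52, 35 to 431 and 25 to 70.

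With the replicate number as a block, counts were 848, 282, 71, 173 and 92, and the block changed no call of the 5 contigs. Same-numbered libraries of a site had correlated deviations at Pigeon Point (0.694) and La Jolla (0.644) but not at Slide Ranch (-0.0588) or Aliso Beach (0.103), so the numbers were not taken as pairs.

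Depth does not limit the induced contigs after heating. In controls they rest on as few as 36 reads, and 2 libraries per site leave 8 residual degrees of freedom.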
